A study of Caenorhabditis elegans with 2 samples.

Results

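The 962 regions described here are autosomal NHR-84 ChIP-seq regions whose summits lay inside protein-coding exons. They were selected on the pooled signal of both replicates: the 30000 regions of the pooled list were ranked by the caller's signal, and those of rank 1 to 5000 outside chromosome X and the mitochondrial chromosome were kept. The summit had to lie in a coding sequence interval of the Ensembl annotation and outside promoter windows, which reach 500 bp upstream and 100 bp downstream of each coding transcription start site (TSS). Of the 4182 autosomal regions of rank 1 to 5000, 962 met this rule (23.0%). Rank, signal and annotation class therefore chose the regions and are given as description.

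The study profiled tagged NHR-84 by ChIP-seq in whole first-stage (L1) larvae of Caenorhabditis elegans, pooled from both sexes, with 2 biological replicates of 1 group. The animals were of strain OP357, which carries the unc-119(tm4063) mutation on chromosome III and the transgene wgIs357, from which NHR-84 with a GFP-FLAG tag at its C-terminus is stably expressed. Both replicates share this genotype, so no condition could be compared, and the labels give neither the extent of the transgene nor its expression relative to the endogenous gene. The files are lists of called regions without read counts, so sequencing depth is unknown, and the control library was not analysed here.

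NHR-84 belongs to the nuclear hormone receptor family, transcription factors with a zinc-finger DNA-binding domain and, in most members, a ligand-binding domain, a family that is greatly expanded in nematodes. Transcription factors of this kind are usually studied at promoters and other non-coding regulatory sequence. Coding exons are denser in G and C than the AT-rich non-coding worm genome.

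The sequences at the summits of 5 of the highest regions are shown so that the coding context can be read directly. The region in nhr-102 is added because it lies beside nhr-84 itself. Each is 101 bases centred on the summit, from the WBcel235 genome (ce11), written 5′ to 3′ on the strand of the host gene, with coding bases of the host transcript in capitals and intron bases in lower case. The hsp-90 sequence is from chrV:14686333-14686433 (plus strand), taf-6.2 from chrIV:3694304-3694404 (minus), scc-2 from chrII:254357-254457 (minus), arf-5 from chrIV:7982600-7982700 (plus), T15B12.1 from chrIII:5294879-5294979 (plus) and nhr-102 from chrV:15875286-15875386 (minus).
hsp-90: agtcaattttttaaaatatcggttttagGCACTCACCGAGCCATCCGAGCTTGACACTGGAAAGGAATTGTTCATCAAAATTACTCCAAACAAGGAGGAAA
taf-6.2: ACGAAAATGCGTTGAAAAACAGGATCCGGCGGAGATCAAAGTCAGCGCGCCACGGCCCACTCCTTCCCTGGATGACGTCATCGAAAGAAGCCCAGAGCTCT
scc-2: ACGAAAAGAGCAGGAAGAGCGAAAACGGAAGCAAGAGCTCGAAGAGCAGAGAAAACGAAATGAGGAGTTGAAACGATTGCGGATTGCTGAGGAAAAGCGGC
arf-5: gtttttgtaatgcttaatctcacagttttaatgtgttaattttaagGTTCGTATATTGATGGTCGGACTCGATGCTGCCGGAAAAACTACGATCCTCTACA
T15B12.1: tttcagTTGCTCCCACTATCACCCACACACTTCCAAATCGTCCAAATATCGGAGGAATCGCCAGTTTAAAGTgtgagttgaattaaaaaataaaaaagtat
nhr-102: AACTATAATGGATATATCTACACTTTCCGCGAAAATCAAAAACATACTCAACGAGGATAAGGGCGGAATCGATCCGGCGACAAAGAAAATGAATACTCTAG
The summits in hsp-90 and arf-5 lay just inside exon 2, so that the window also took in the end of the intron before it, and the T15B12.1 window took in an exon of 66 bases with intron on both sides. The taf-6.2, scc-2 and nhr-102 windows were coding throughout. GC content in these windows ran from 36.6% in arf-5 and T15B12.1 to 55.4% in taf-6.2.

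Only 4 of the 962 regions (0.416%) were in the IDR list, the 106 regions left by the irreproducible discovery rate filter, a method that weighs how alike replicates rank a region. Over all autosomal regions of rank 1 to 5000 the share was 2.01%, or 84 regions, of which 52 lay at promoters, 14 in introns, 12 in intergenic sequence and 2 in untranslated exon sequence. The IDR list consists of the highest pooled signals, and the ranks used here come from the same signals, so this share is a description and no test applies to it.

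The highest of the 4 lay in hsp-90, which encodes the cytosolic chaperone Hsp90, at chrV:14686231-14686534 in exon 2 of 4. Its pooled signal was 71.8 (rank 31), and its signal was 36.8 in replicate 1 (rank 35) and 33.3 in replicate 2 (rank 66), so it was high in both. The summit lay 223 bp downstream of the gene's own TSS, and 618 bp from a separate IDR region at a promoter, the region at the hsp-90 promoter itself, with a signal of 60.4 (rank 52). A second hsp-90 region of rank 1164 had a signal of 33.3 in the pooled list, was at rank 3712 in replicate 2 and had no match in replicate 1. A match here means a replicate summit within 100 bp, so a region without one may still be listed with a summit somewhat further away.

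The region in suro-1, which encodes a putative zinc carboxypeptidase, lay at chrI:7872204-7872507 in the last of 10 coding exons, with a pooled signal of 59.1 (rank 58). It ranked 217 in replicate 1 (signal 25.4) and 53 in replicate 2 (34.9). With hsp-90 it was 1 of only 2 regions in coding exons that ranked 1 to 500 in both replicates, against 63 of the 3220 other autosomal regions of rank 1 to 5000. Unlike hsp-90 it lay far from promoters, 2329 bp from the nearest coding TSS and 3198 bp from its own.

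The other 2 IDR regions were less even between the replicates. The T28F4.4 region, at chrI:7492886-7493189 with a pooled signal of 56.3 (rank 77), ranked 71 in replicate 2 (signal 32.5) but 13501 in replicate 1 (12.0). It lay in exon 3 of 13, its summit also fell in untranslated exon sequence of another transcript, and an IDR region at a promoter lay 897 bp away. The region in taf-6.2, a subunit of the general transcription factor TFIID, at chrIV:3694202-3694505 with a pooled signal of 53.4 (rank 93), ranked 82 in replicate 2 (31.4) and 1603 in replicate 1 (18.7). Its summit was 379 bp downstream of its own TSS, in exon 3 of 9.

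Signals over the 962 regions ran from 26.1 to 71.8 with a median of 29.1, against a median of 29.7 and a highest value of 175 for the other autosomal regions of rank 1 to 5000. The deposited q-values ran from 0.0820 in hsp-90 to 0.936, with a median of 0.870, and none was under 0.05. Lower q-values did not follow higher signal across the list: the −log10 q-value had a median of 0.0603 in these regions and 0.100 in coding-exon regions below rank 5000. At the rank limit, the last regions inside were stdh-1 (rank 4977), C01G5.4 (4984) and ZC487.1 (4991), and the first outside were wht-1 (5002), R08D7.5 (5003) and str-88 (5008), with signals of 26.072 to 26.085 inside and 26.044 to 26.056 outside.

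The share of autosomal regions in coding exons was small at the top of the list and near the share of the genome below it. It was 11.3% at ranks 1 to 500 (47 of 416 regions, 95% Wilson interval 8.60 to 14.7%), 20.9% for those ranked 501 to 1000, then 22.9% for 1001 to 2000. From there to rank 5000 it lay between 23.7% and 26.8%, and below rank 5000 it was 26.1% (5377 of 20627). Coding sequence outside promoter windows made up 22.8% of autosomal bases. Promoters, by contrast, held 24.5% of autosomal regions of rank 1 to 5000 and 16.3% of those below. These intervals, like all others here, cover counting error over regions only and treat neighbouring regions as separate.

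**Figure D1:**
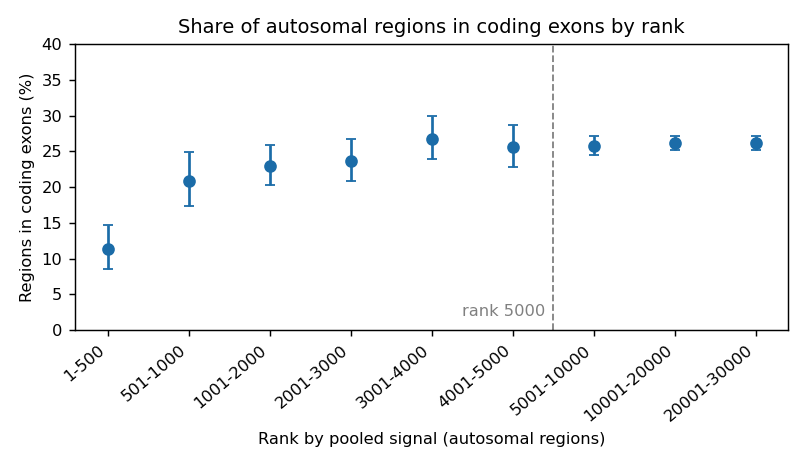
Share of autosomal pooled regions whose summit lay in a coding exon outside promoter windows (y axis, percent) by bins of rank in the pooled signal (x axis); points are shares and bars 95% Wilson intervals, and the dashed line marks rank 5000. The share is 11.3% in the first bin and between 20.9% and 26.8% in all others.

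Of the 962 regions, 610 (63.4%) had a summit within 100 bp in both replicate lists, close to the 61.5% of all autosomal regions of rank 1 to 5000. Another 168 were found in replicate 1 only, 174 in replicate 2 only and 10 in neither. Since the pooled list joins the replicates, these shares are not independent of the choice of regions. Support was 83.0% for ranks 1 to 500 but 51.7% for 4001 to 5000, and it was 12.2% among coding-exon regions below rank 5000. A rank of 1 to 5000 in both replicates was reached by 74 regions (7.69%), against 394 of the 3220 other autosomal regions (12.2%). In 499 regions (51.9%) one replicate placed the region at rank 1 to 5000 and the other placed it below 10000 or held no match. That share was close to the 52.1% of the other autosomal regions of rank 1 to 5000. Among the 610, ranks in the replicates had Spearman's rho of −0.31, against −0.10 over the 1960 other autosomal regions of rank 1 to 5000 found in both lists. Both sets were chosen by a signal that joins the replicates, so the values are descriptions.

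**Figure D2:**
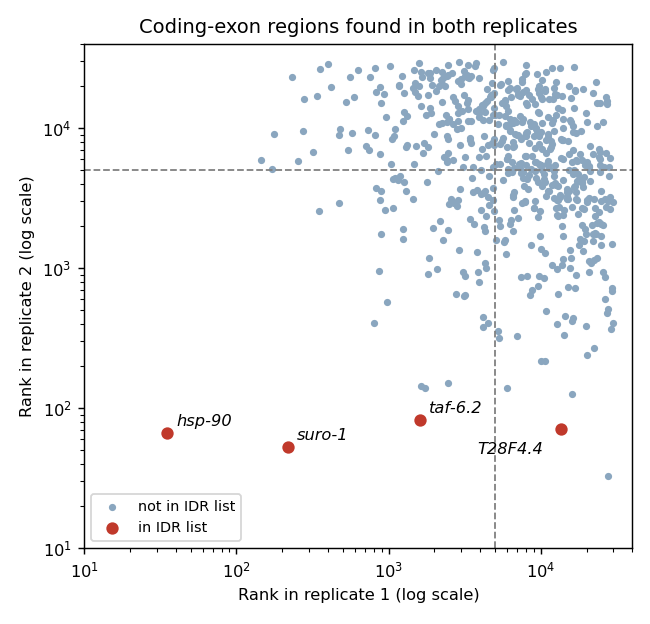
Rank in replicate 1 (x axis, log scale) against rank in replicate 2 (y axis, log scale) for the 610 coding-exon regions found in both lists; red points are the regions of the IDR list, named by gene, and dashed lines mark rank 5000. Only hsp-90 and suro-1 rank 1 to 500 in both, and T28F4.4 ranks 13501 in replicate 1.

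Regions chosen on 1 replicate alone leave the other replicate free. The same rule applied to replicate 1 gave 983 coding-exon regions, of which 71 (7.22%, interval 5.77 to 9.01%) were also of rank 1 to 5000 in replicate 2, against 10.9% of autosomal regions of all classes. Applied to replicate 2 it gave 996, of which 71 (7.13%, 5.69 to 8.90%) reached that rank in replicate 1, against 10.8% of all classes. At promoters the shares were 16.5% and 16.2%, in introns 9.02% and 8.20%, and in intergenic sequence 10.8% and 11.6%. Coding-exon regions below rank 5000 in the choosing replicate reached rank 1 to 5000 in the other in 3.73% and 3.33% of cases. In both directions the coding-exon share was thus above that of lower coding-exon regions and below those of promoters, introns and intergenic sequence. Its interval overlapped that of introns both times (7.39 to 11.0% and 6.71 to 9.98%). With 2 samples and regions that are not replicates, no test was made of these differences.

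Several of the highest regions ranked far higher in replicate 2 than in replicate 1. In scc-2, which encodes the loader of the cohesin complex, the region had a pooled signal of 49.3 (rank 133), a replicate 2 signal of 38.7 (rank 33) and a replicate 1 signal of 9.39 (rank 27660). In rpn-1, a subunit of the 19S regulatory particle of the proteasome, the pooled signal was 41.6 (rank 330), with ranks of 127 in replicate 2 and 15948 in replicate 1. The region in arf-5, an ADP-ribosylation factor GTPase of membrane traffic, had a signal of 48.3 (rank 145) and ranked 139 in replicate 2 and 1742 in replicate 1. Regions in C05D11.8 (rank 210), C17H12.10 (226) and mstr-1 (280) had no match in replicate 1 and ranked 237, 116 and 289 in replicate 2.

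Of the 20 highest regions, 12 ranked 1 to 500 in replicate 2 only and 4 in replicate 1 only. Over all 962 regions, 55 ranked 1 to 500 in replicate 2 and 38 in replicate 1, counting those in both. For the 3220 other autosomal regions of rank 1 to 5000 these counts were 291 and 315. The sac-2 region (rank 266) was at 172 in replicate 1 and at 5113 in replicate 2, and acer-1 (rank 288) had the same order, at 253 and 5869. The regions in F30B5.11 (rank 188; 351 and 2583) and C49A1.5 (rank 328; 275 and 9543) had the same order. A more even region outside the IDR list was that of dyf-19, which encodes a protein of ciliary transition fibres, with a signal of 43.4 (rank 258) and ranks of 981 and 578. The trpp-10 region (rank 276) ranked 2442 and 151. The rpn-8 region (rank 346), in another 19S proteasome subunit, ranked 18571 in replicate 1 and had no match in replicate 2.

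Along the genes, the regions were spread over the coding sequence. The median summit lay at 0.489 of the spliced coding sequence, counted from start codon to stop codon, against 0.506 for coding-exon regions below rank 5000, and each of 10 equal bins of the coding sequence held between 7.48% and 11.7% of the regions. Internal exons held 77.3%, first coding exons 8.73% and last ones 13.4%, against 78.5%, 6.77% and 14.4% below rank 5000. The host exons had a median length of 280 bp, against 272 bp, and 50.8% of host genes were on the plus strand in both sets. The exclusion of promoter windows thins out the first bases of each gene in both sets alike.

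**Figure D3:**
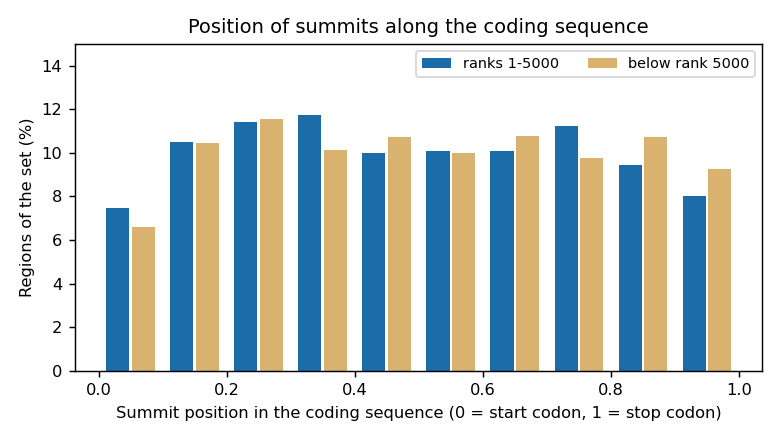
Share of regions (y axis, percent) by bin of 0.1 of the spliced coding sequence in which the summit lay (x axis, 0 start codon to 1 stop codon), for the 962 regions of rank 1 to 5000 (blue) and the 5377 below rank 5000 (sand). Each bin holds between 6.62% and 11.7% of either set.

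The strongest regions lay nearer the starts of their genes. Of the 47 regions of rank 1 to 500, 18 (38.3%, interval 25.8 to 52.6%) had their summit 101 to 500 bp downstream of their own TSS, against 205 of the 915 of rank 501 to 5000 (22.4%, 19.8 to 25.2%) and 20.4% below rank 5000. The summit lay before 0.25 of the coding sequence in 20 of the 47 (42.6%) and 208 of the 915 (22.7%). A separate region of rank 1 to 500 stood at the host gene's own promoter for 6 of the 47 (12.8%, 5.98 to 25.2%), 30 of the 915 (3.28%) and 1.47% of lower coding-exon regions. No test was made of these differences. Among the 20 highest, the genes with such a promoter region were hsp-90, scc-2 (promoter region of rank 112), mstr-1 (rank 307) and fbxb-72, an F-box gene whose own promoter region ranked 41, above the exon region at rank 287. How far signal from promoters contributes to the exon regions was not tested.

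GC content differed more between coding exons and other classes than between higher and lower coding-exon regions. Over the 101 bases centred on the summit, GC content averaged 41.5% ± 6.34 (SD, n = 962 regions), against 41.4% ± 6.61 in the 5377 lower coding-exon regions and 37.3% ± 8.14 in the 3220 other autosomal regions of rank 1 to 5000. Autosomal coding sequence outside promoter windows had a GC content of 42.7% and the autosomes as a whole 35.5%. Any 36-base word found elsewhere in the genome occurred in 28 regions (2.91%), against 4.84% of lower coding-exon regions, and in none of the 962 were 50% or more of the words repeated. In T15B12.1 (signal 46.6, rank 173) 15.2% of the words were repeated, and a tRNA gene lay 50 bp from its summit. Of the 962, 8 (0.832%) lay within 200 bp of a short RNA gene (all tRNA or snoRNA genes), against 0.465% of lower coding-exon regions. The 8 included lim-8, a LIM-domain gene (rank 963, tRNA gene 95 bp away), and nol-56, a nucleolar protein gene (rank 3336, snoRNA gene 40 bp away).

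In all, 7 short words were searched for on both strands within 50 bp of the summit, and their shares are set beside those in lower coding-exon regions and in other autosomal regions. They were AGGTCA and AGTTCA, both of the kind bound by nuclear receptors, GAGAGA, a word of GAGA-type factors, GTAAACA, a forkhead word, TGACTCA, the AP-1 word, CACGTG, an E-box, and GATAA, the core of GATA factor words. AGGTCA occurred in 1.77% of the regions, 1.67% of lower coding-exon regions and 2.98% of other autosomal regions of rank 1 to 5000, and AGTTCA in 6.24%, 7.40% and 6.34%. GAGAGA occurred in 6.65% (interval 5.24 to 8.41%), 5.88% and 10.4%. TGACTCA was in 14 regions (1.46%, 0.869 to 2.43%), against 0.744% (0.547 to 1.01%) of lower ones and 1.18% of the others. GTAAACA was in 0.624%, 0.502% and 1.43%, CACGTG in 2.29%, 2.64% and 2.67%, and GATAA in 22.7%, 20.3% and 20.9%. Of the sequences printed above, nhr-102 held GATAA and the others held none of the words. A word in a window is a description and no evidence of a site.

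The regions lay in 908 genes, 5.27% of the 17242 autosomal coding genes, with 1 region in 860 genes, 2 in 42 and 3 in 6. The genes with 3 were icl-1, rbd-1, tps-2, lrp-2, ubr-4 and unc-89. In icl-1, which encodes the glyoxylate cycle enzyme, the regions had signals of 38.2, 32.9 and 30.2 within 2824 coding bases. None of the 3 ranked 1 to 5000 in both replicates, with ranks of 482 and 9857 in replicates 1 and 2 for the first, 16231 and 442 for the second, and 5408 in replicate 2 alone for the third. In tps-2, a trehalose phosphate synthase gene, signals ran from 26.4 to 35.0 within 3398 coding bases. In unc-89, which encodes a giant obscurin-like protein of muscle, they ran from 26.1 to 36.3 within 24152 coding bases, and in ubr-4, a ubiquitin ligase gene, from 26.6 to 33.3 within 12610.

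How often a gene held a region followed its length. Genes with under 500 coding bases outside promoter windows held one in 1.54% of cases, those with 500 to 1000 in 3.39%, 1000 to 2000 in 7.33%, 2000 to 4000 in 13.3% and over 4000 in 22.9%. Per megabase of such coding sequence the 5 groups held 55.0, 44.7, 55.5, 55.2 and 42.1 regions, near the 51.0 of all genes. By chromosome the density was 54.6 on I, 38.7 on II, 64.7 on III, 56.2 on IV and 45.1 on V. Coding-exon regions below rank 5000 had densities of 297, 262, 306, 297 and 272 in the same order, so chromosome II was lowest and III highest in both.

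Gene lists were therefore read both per gene and per megabase, without a test. Among 21 lists, 14 had a share of genes above the 5.27% of all genes. The highest was that of actin, tubulin, spectrin and motor proteins, with 9 of 44 genes (20.5%, 11.2 to 34.5%), at 74.1 regions per megabase. Chromatin and DNA replication genes held a region in 21 of 121 (17.4%, 11.6 to 25.1%), 26 regions in all, at 93.6 per megabase. Chaperones held one in 10 of 84 (11.9%, 6.60 to 20.5%) at 138 per megabase, and respiratory chain genes in 5 of 41 (12.2%, 5.32 to 25.5%) at 226. The respiratory chain density rests on 5 regions in 22.1 kb. The basement membrane and matrix list stood high per gene, with 4 of 22 (18.2%), but its density of 26.7 per megabase was below that of all genes. Lower coding-exon regions stood at 185, 310, 390, 316 and 147 per megabase in these lists, in the order named. For all genes their density was 285. Chromatin, chaperone and respiratory chain genes thus stood above all genes among lower coding-exon regions too.

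**Figure D4:**
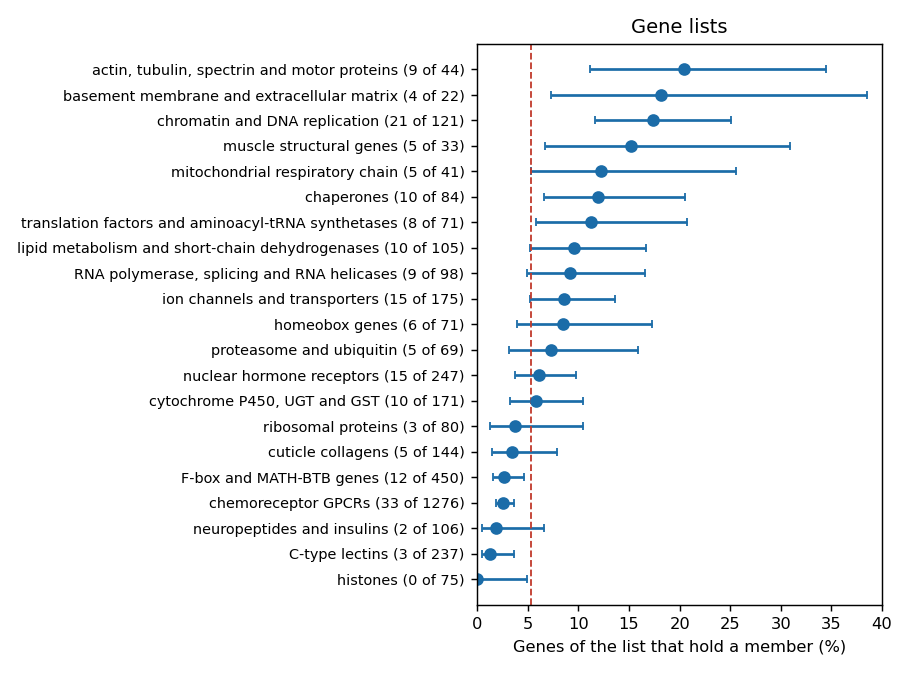
Share of the autosomal coding genes of each list that held at least 1 coding-exon region of rank 1 to 5000 (x axis, percent; bars are 95% Wilson intervals; counts in brackets). The dashed line is the 5.27% of all autosomal coding genes. Shares run from 0 of 75 histone genes to 20.5% of cytoskeletal and motor genes.

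In the chromatin list, after scc-2, came spr-5, a histone demethylase of the LSD1 type (signal 40.9, rank 367; 10086 in replicate 1 and 217 in replicate 2), dpy-26, a condensin subunit of the dosage compensation complex (37.2, rank 609), and set-16, a histone methyltransferase of the MLL type (36.1, rank 733; 740 and 7039). The dpy-26 region was even between replicates, at ranks 865 and 948 with signals of 20.5 and 20.2. In the cytoskeletal list the highest were dhc-1, the cytoplasmic dynein heavy chain (37.2, rank 616; 1035 and 5542), sma-1, a beta-heavy spectrin (33.4, rank 1157; 9748 and 880), and unc-116, the kinesin heavy chain (33.0, rank 1229; 1799 in replicate 1 and no match in replicate 2).

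Muscle structural genes held a region in 5 of 33 genes (15.2%), at a density of 54.5 per megabase, near that of all genes. The highest was pat-6, the parvin of muscle attachments (signal 40.5, rank 376), which ranked 1251 and 1896 in the replicates with signals of 19.4 and 18.0, and the highest unc-89 region ranked 1246 and 1620. These were even between replicates without reaching the IDR list. Among chaperones after hsp-90, hsp-6, the mitochondrial Hsp70 (31.7, rank 1580), ranked 19066 and 1335, and sti-1, an Hsp90 co-chaperone (31.1, rank 1780), had a match in replicate 2 alone, at 1336.

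Of the metabolic genes, elo-1, a fatty acid elongase gene, held the highest region of the lipid list (39.7, rank 418; 889 and 3588), in which 10 of 105 genes (9.52%) held one, at 79.8 per megabase. Respiratory chain genes were led by sdha-2, a subunit of succinate dehydrogenase (34.8, rank 896; 8736 and 703), and atp-2, a subunit of ATP synthase (31.2, rank 1768). Translation factors and aminoacyl-tRNA synthetases held a region in 8 of 71 genes (11.3%) at 80.4 per megabase, led by eif-3.I, a subunit of initiation factor eIF3 (35.0, rank 865; 417 and 19777), and erfa-1, a release factor (33.5, rank 1127; 2481 and 2868). Ribosomal protein genes held a region in only 3 of 80 (3.75%), in rpl-4 (36.1, rank 723), rpl-21 (30.1) and rpl-35 (27.0). Their density of 128 per megabase rests on 3 regions in 23.5 kb. Lower coding-exon regions stood at 290, 302 and 383 per megabase in the lipid, translation and ribosomal lists, against 285 for all genes.

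Of the lists with over 200 genes, 3 stood below the share and the density of all genes. Chemoreceptor GPCR genes held a region in 33 of 1276 (2.59%, 1.85 to 3.61%) at 30.6 per megabase, F-box and MATH-BTB genes in 12 of 450 (2.67%) at 30.0, and C-type lectins in 3 of 237 (1.27%, 0.431 to 3.65%) at 13.5. Below rank 5000 these lists held 251, 285 and 257 coding-exon regions per megabase, against 285 for all genes. None of the 75 histone genes held a region (0%, up to 4.87%), but together they have only 12.8 kb of coding sequence outside promoter windows. Below rank 5000 they held 4 coding-exon regions, or 313 per megabase, which was not under the 285 of all genes. Cuticle collagen genes held a region in 5 of 144 (3.47%) at 39.4 per megabase. Neuropeptide and insulin genes stood low per gene, with 2 of 106 (1.89%), but at 83.0 per megabase, a density that rests on 2 regions in 24.1 kb.

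The remaining lists were above the share of all genes, not always above its density. Homeobox genes held one in 6 of 71 (8.45%) at 87.8 per megabase, proteasome and ubiquitin genes in 5 of 69 (7.25%) at 63.7, and RNA polymerase, splicing and helicase genes in 9 of 98 (9.18%) at 59.6. The homeobox list was drawn by gene name and counts lim-8, a LIM-domain gene (rank 963), among its 6, so its share and density are overstated. Ion channel and transporter genes held one in 15 of 175 (8.57%) and detoxification genes of the P450, UGT and GST families in 10 of 171 (5.85%), at 45.9 and 48.9 per megabase, below the 51.0 of all genes. Lower coding-exon regions stood at 146, 471, 351, 290 and 288 per megabase in these lists, in the order named. For all genes their density was 285.

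Nuclear hormone receptor genes held a region in 15 of 247 (6.07%, 3.71 to 9.78%) at 57.4 per megabase. These values were near the 5.27% and 51.0 of all genes. Lower coding-exon regions stood at 306 per megabase in this list, against 285 for all genes. The highest region was in nhr-102 (41.4, rank 344), which with nhr-84 lies in the segment around nhr-84 described below. Others were in nhr-189 (37.6, rank 569), nhr-80, a regulator of fat metabolism (36.5, rank 692, no match in replicate 1 and 399 in replicate 2), and nhr-67, a receptor of the tailless type (32.0, rank 1498).

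Around nhr-84 itself, on the minus strand of chrV:15876732-15879608, coding-exon regions were dense among the high ranks. Within 20 kb, 10 of the 17 coding-exon regions of the pooled list were of rank 1 to 5000 (58.8%, interval 36 to 78%), against 15.2% of all autosomal coding-exon regions, which is 663 per megabase of coding sequence against 51.0 overall. Of all 40 pooled regions there, 22 ranked 1 to 5000 (55%), against 16.9% on the autosomes. The highest of the 10 coding-exon regions was in nhr-102, another nuclear hormone receptor gene, 4272 bp downstream of the nhr-84 start, with a signal of 41.4 (rank 344) and ranks of 6024 and 140. Next came fbxa-197, an F-box gene (39.8, rank 415; 1294 and 3533), and str-56, a chemoreceptor gene (35.5, rank 798), which ranked 801 and 405 and was thus high in both replicates.

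The others were regions in oac-42 (signals 32.3 and 31.7), cgt-1, a ceramide glucosyltransferase gene (32.0), nhr-84 exon 7 of 7 (31.0, rank 1842; 18770 and 2037), srz-12 (27.1 and 26.6) and str-60 (26.6). Fragments from transgene copies of this segment and from the endogenous locus cannot be told apart in these lists, and the part of copy number in these ranks was not tested. Within 20 kb of unc-119, which such transgenes often carry as a rescue marker, 1 of 5 coding-exon regions was of rank 1 to 5000, in cut-6 (27.0, rank 4094), 11117 bp from the unc-119 start.

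**Figure D5:**
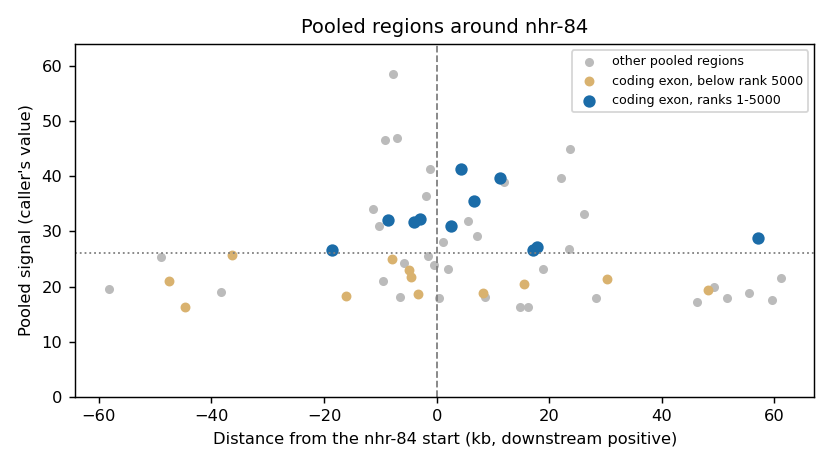
Pooled signal (y axis, the caller's value) of all pooled regions within 60 kb of nhr-84 by distance from its start (x axis, kb, downstream positive). Blue points are the 11 coding-exon regions of rank 1 to 5000, of which 10 lie within 20 kb of the gene, sand points coding-exon regions of lower rank and grey points other regions; the dotted line is the signal of 26.1 at rank 5000 and the dashed line the nhr-84 start.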

How the data were processed

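ChIP-seq regions were analysed for 2 samples, labelled biological replicates 1 and 2 of 1 group. Per the deposited file records, the authors made 1 list from each replicate, 1 from both pooled and 1 that passed the IDR step, with a control alignment as a parent. The sources used here do not name the aligner, the caller, its settings or the IDR threshold. Signal, as deposited, is the caller's own number for a region, on an unstated scale that is not shared by the lists, and it served for ranking and description inside each list. The authors' lists also carry a −log10 q-value from the caller. Each replicate or pooled list ends at 30000 regions and thus includes background. Regions are 304 bp wide (290 bp in replicate 1), and the deposited summit is always the midpoint. Lists on ce10 were not used.

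Regions on ce11 were annotated with Ensembl release 115, whose assembly WBcel235 is ce11, and sequence was read from the RefSeq WBcel235 genome. Position refers to the transcript with the longest coding sequence that holds the summit. Summits within 100 bp were matched between lists. Intervals are 95% Wilson intervals. No p-value was computed: there is 1 group, and regions are not replicates. Python 3.11.15, numpy 2.4.6, pandas 2.3.3, scipy 1.17.1 and matplotlib 3.10.9 were used, and the region rules were tested on simulated data with planted regions.

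The regions, lists and words were chosen with earlier results of these data known. The 21 gene lists were defined by gene names, and those of collagens, chemoreceptors, histones, ubiquitin and channel genes were corrected for misassigned names after their members had been seen. The homeobox list was not corrected and keeps lim-8. Genes were named by rule: the 20 highest signals, regions in the IDR list or of rank 1 to 500 in both replicates, genes with 3 regions, up to 4 regions with the highest signal per gene list, those next to rank 5000, and those within 20 kb of nhr-84 or unc-119. The tRNA and snoRNA neighbours were named after their values were seen. Alternatives were other rank limits, promoter windows, start sites, matching distances, transcripts and sequence windows, unique sequence only, regions away from the transgene's genes, and each replicate left out.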

Additional observations from a re-analysis of the deposited data

How the results depend on the processing

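Of 57 alternative values for 6 results, 43 stayed close to the main value. Close meant within 1 SD between the replicate lists for GC content and position. That SD comes from the values with a replicate left out, so it is no separate measure for those values. For support and words close meant within the 95% Wilson interval, and for counts within 1.5 times. The sets of lower and other regions were not recomputed under the alternatives, so differences from them were not checked. The 962 regions became 430 with the 2500 highest regions and 2032 with the 10000 highest, as fewer or more were taken. Support in both replicate lists (63.4%) was 75.3% with the 2500 highest, 47.6% with the 10000 highest, 45.6% with summits matched within 50 bp and 76.0% within 200 bp. GC content (41.5%) was 41.8% with the 2500 highest, 39.9% over whole regions, and between 41.7% and 41.8% with a replicate left out. The median position (0.489) was 0.472 with the 2500 highest, 0.515 with a promoter window of 1000 bp upstream and 200 bp downstream, and 0.467 on the transcript with the shortest coding sequence. GAGAGA (6.65%) reached 12.0% within 100 bp, a wider window. Causes of the other shifts were not tested. Lists with a share of genes above that of all genes numbered 14, and between 10 and 14 under the alternatives. With a replicate left out, the rule gave between 983 and 996 regions. Using region centres could change nothing, because summits are midpoints, yet these values count among the 43. Support without a replicate has no value. No paired analysis was possible because both samples belong to 1 group.

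Without read counts the depth of either replicate is unknown, so unequal depth and unequal enrichment cannot be told apart. The replicate lists end at 30000 regions, and a region without a match within 100 bp is not shown to lack signal.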
